A study of Mus musculus with 6 samples.

Results

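Sp1, Sp2, Sp3 and Sp4 are 4 of the 36558 genes in the authors' gene comparison of mouse hearts with and without the splicing factor SRSF3 in cardiomyocytes, and 36 of the 265079 splicing events in their event comparison lie in these genes. The genes were matched by symbol to their Ensembl IDs and to the gene names of the events, and all 4 were found in both. The family was chosen by measured values of this comparison, the inclusion of the long exon of Sp4 and the mRNA level of Sp4, so the values of the 4 genes are a description and are not used as a test. All hearts carried the floxed Srsf3 allele on both copies. The 3 control hearts were Srsf3Fl/Fl, and the 3 cKO hearts were Srsf3Fl/Fl-βMHC-Cre, in which the Myh7 promoter drives Cre in cardiomyocytes before birth. Other cell types of the heart keep Srsf3, and no source used here gives the age or sex of the mice. Polyadenylated RNA of whole hearts was sequenced, and the authors' tables hold 1 value per group or per comparison, so no value per heart is shown.

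Sp proteins are transcription factors that bind GC-rich boxes in promoters through C2H2 zinc fingers at their carboxyl end. The region before the fingers carries stretches rich in glutamine and in serine and threonine, through which Sp1 contacts TFIID and Mediator, the complexes that bring RNA polymerase II to promoters. Sp1 and Sp3 are found in most tissues, Sp2 acts at CCAAT-containing promoters together with NF-Y, and Sp4 is best known from neurons. In the heart Sp4 was also described as HF-1b, and mice without it have defects of the cardiac conduction system and die suddenly. SRSF3 belongs to the SR proteins, which bind exons and promote their inclusion.

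In all 4 genes 1 internal exon holds more of the coding sequence than all other exons together and lies before the zinc fingers. The last exon is longer in nt, but most of it is not coding. In GENCODE M21 on GRCm38 it is exon 3 of Sp1 at chr15:102408216-102409719 (1504 nt, plus strand), exon 3 of Sp2 at chr11:96961038-96962009 (972 nt, minus strand), exon 4 of Sp3 at chr2:72970155-72971514 (1360 nt, minus strand) and exon 3 of Sp4 at chr12:118298638-118300192 (1555 nt, minus strand). It holds 64.2% of the coding length of Sp1, 52.9% of Sp2, 57.9% of Sp3 and 66.5% of Sp4. The pattern of a C2H2 zinc finger was found 3 times in each protein, every time after the long exon. Codons for glutamine made up 15.6% of the long exon of Sp1, 12.3% in Sp2, 15.5% in Sp3 and 16.8% in Sp4, and codons for serine or threonine 24.2%, 19.4%, 21.2% and 24.9% in the same order. The bases of the 4 exons were 61.0% to 64.4% identical between pairs where they aligned, and the Sp2 exon is the shortest.

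The 30 codons with the most glutamine in each long exon are shown for the activation domain that the exon encodes, with the glutamine codons in capitals. They number 14 in Sp1, 10 in Sp2, 11 in Sp3 and 14 in Sp4.
Sp1: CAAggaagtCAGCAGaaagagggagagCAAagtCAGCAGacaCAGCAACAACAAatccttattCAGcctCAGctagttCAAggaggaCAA
Sp2: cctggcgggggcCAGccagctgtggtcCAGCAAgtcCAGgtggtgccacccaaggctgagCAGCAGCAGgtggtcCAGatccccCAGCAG
Sp3: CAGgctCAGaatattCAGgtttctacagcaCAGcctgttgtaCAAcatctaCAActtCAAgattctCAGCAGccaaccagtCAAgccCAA
Sp4: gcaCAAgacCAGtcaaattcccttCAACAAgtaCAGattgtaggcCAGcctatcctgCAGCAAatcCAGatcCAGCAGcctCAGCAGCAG

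The targeted gene, Srsf3, stood at a log2 fold change of 0.02 (SE 0.07), cKO over control, in the authors' deposited table. The value sums all transcripts of the gene in whole hearts, so it does not check the deletion. Of the authors' lists from other pipelines, Srsf3 was in that of sleuth and not in that of featureCounts.

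The long exon of Sp4 was included in most transcripts of control hearts and skipped in most transcripts of cKO hearts. The authors' inclusion level (PSI, the share of a gene's transcripts in which an exon, intron or splice site is used, in %) was 89.6% in control and 21.6% in cKO. Inclusion was thus 4.15-fold lower, and the skipped share rose from 10.4% to 78.4%. In the authors' deposited table the change exceeded 52 points with a probability of 0.95, a quantity called the minimum change here. Among its 107748 exons 0 had a larger fall in inclusion, and 2, counting Sp4 itself, had a minimum change of at least 52 points. Events were called at a minimum change of at least 10 points. At that limit 1 of 36 events of the Sp genes was called, the Sp4 exon, beside 0.23% of all events (0.151% lower in cKO), 0.294% of exons (0.217% lower) and 1.28% of the 3904 exons over 300 nt (1.23% lower). Since the exon chose the genes, nothing is read from that count.

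The exon could be compared between the paralogs for Sp2 and Sp4 only. None of the 36 events listed for these genes is the long exon of Sp1 or Sp3. The 972-nt exon of Sp2 stood at 99.5% in control and 98.3% in cKO, with a minimum change of 0 in the authors' deposited table. A fall at least as large as that of Sp2 was seen in 15.9% of the exons over 300 nt. The difference between Sp4 and Sp2 has no test, since each group is 1 value. The introns directly after the long exon of Sp1 and Sp3 were listed, and their retention was 10.4% in control and 5.15% in cKO for Sp1 and 0.741% and 0.526% for Sp3. Retention of these introns says nothing on how often the long exon beside them was skipped.

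**Figure D1:**
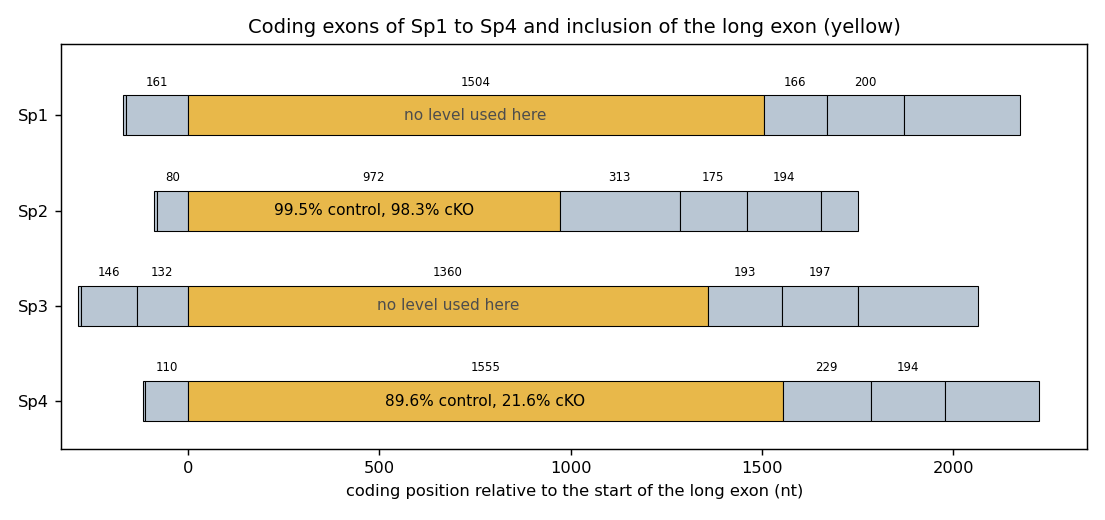
Coding exons of Sp1 to Sp4 drawn to scale along the coding sequence, in nt from the start of the long exon (yellow), with exon lengths above and the inclusion of the long exon in control and cKO written inside. The Sp4 exon stands at 89.6% and 21.6% and the Sp2 exon at 99.5% and 98.3%. The Sp4 levels are those of the listed exon of 1521 nt, while the drawn exon has the annotated 1555 nt.

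The listed exon of Sp4 is 34 nt shorter than the annotated one, with 1521 nt at chr12:119537111-119538631 on mm9. Its end abuts the listed intron of 36682 nt, whose length equals that of intron 3 of the annotated transcript, so the 34 nt are missing at the start. The first 60 nt of the annotated exon are shown because the bases at positions 33 and 34, in capitals, are an AG, the pair that ends introns, directly before the listed start. The same place in Sp1 also holds AG. Sp2 holds TG and Sp3 holds CG there, and the matching stretch of Sp3 lies at the start of a separate exon of 132 nt before its long exon.
Sp4: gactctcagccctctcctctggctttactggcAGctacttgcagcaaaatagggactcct
Sp1: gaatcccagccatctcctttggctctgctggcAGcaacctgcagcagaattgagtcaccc
Sp2: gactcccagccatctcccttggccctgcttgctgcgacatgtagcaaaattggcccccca
Sp3: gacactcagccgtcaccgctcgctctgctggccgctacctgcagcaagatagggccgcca
Over these 60 bases Sp4 shares 46 with Sp1, 43 with Sp2 and 47 with Sp3. The listed length is a multiple of 3 and the annotated length is not. Which start is used in these hearts cannot be told from the group values.

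By the annotated lengths, skipping of the long exon has a different result for the frame in Sp2 than in the other paralogs. The 972 nt of Sp2 are a multiple of 3, and an mRNA without them would keep 289 of 613 codons, the zinc fingers included. The other 3 exons shift the frame by their annotated lengths. For Sp4 this is the annotated 1555 nt, whereas the listed exon whose inclusion was measured has 1521 nt, a multiple of 3. Where exon 2 of Sp4 joins the 229-nt exon after the long one, reading runs for 8 codons and reaches a stop after 47 codons in all, against 780 with the exon, before any zinc finger and 396 nt ahead of the last exon junction. A stop well before the last junction is the kind that nonsense-mediated decay is known to act on. In Sp3 the same join would end after 116 of 783 codons, 324 nt ahead of the last junction. In Sp1 it would end after 192 of 781 codons, with the stop ending 45 nt past the last junction. GENCODE M21 lists 3 transcripts of Sp4, of which 2 hold both neighbours of the long exon and 0 join them without it. The join in Sp4 is shown with the 36 last nt of the exon before in lower case and the exon after in capitals, up to the stop codon TGA.
Sp4: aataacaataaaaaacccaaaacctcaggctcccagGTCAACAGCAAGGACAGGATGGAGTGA

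The other events of Sp4 moved little and toward complete splicing. Its 110-nt exon, just before the long one, was included at 94.8% in control and 98.7% in cKO. The 229-nt exon just after it stood at 92.3% and 94.4%, and the 200-nt exon that follows, which the drawn transcript has with 194 nt, at 98.1% and 99.3%. Retention of intron 3, behind the long exon, was 3.90% and 1.42%, and of intron 5, 3.77% and 1.12%. All 5 had a minimum change of 0 in the authors' deposited table. Near-complete exons of all genes lay closer to full inclusion in cKO, by a median factor of 0.39 on the log2 scale, and its part in such small shifts was not tested.

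Sp1, the founding member of the family, had 6 listed events and none was called. Its exons of 161, 166 and 200 nt were included at 96.2%, 97.4% and 98.4% in control and at 98.8%, 98.8% and 99.2% in cKO. Retention of intron 4 (4160 nt) was 9.12% in control and 2.92% in cKO, and of intron 5 (568 nt) 2.74% and 4.27%. Control was higher in intron 4 and lower in intron 5, and the minimum change was 0 for all 6 events in the authors' deposited table.

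Sp2 had 12 listed events, all with a minimum change of 0 in the authors' deposited table. Its exons of 77, 175, 194, 313 and 972 nt were included at 99.3% to 99.6% in control and 98.2% to 99.6% in cKO. Its largest shift was between a pair of 3′ splice sites 3 nt apart at the start of exon 2. The inner site, which gives 77 nt, had 69.8% of the use in control and 78.7% in cKO, and the outer site, which gives 80 nt, had 30.9% and 21.1%. Of all alternative 3′ splice sites 0.275% were called, and of 5′ sites 0.284%. These levels are complementary readings of the same junctions. The first intron of Sp2 (14176 nt) was retained at 15.3% in control and 9.80% in cKO, and its other 4 introns at 1.84% to 4.90% in control and 2.69% to 5.51% in cKO.

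Sp3, whose protein can activate or repress, showed the smallest differences, none above 0.441 points in its 12 events. Its exons of 146, 193 and 197 nt were included at 99.4% to 99.9% in control and 99.5% to 99.9% in cKO. Exons of 91, 122 and 198 nt that have no match by length among the annotated internal exons were included at 0.533%, 0.218% and 0.514% in control and 0.974%, 0.426% and 0.362% in cKO. The main 5′ splice site of its listed pair held 98.9% of the use in control hearts and 99.0% in cKO hearts. Its 4 listed introns were retained at 0.364% to 2.63% in control and 0.263% to 3.07% in cKO.

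Across the 4 genes 17 of 18 exons and all 14 introns had a minimum change of 0. Of all introns 0.134% were called. By sign alone, 9 of these 14 introns were lower and 5 higher in cKO, and 13 of the 18 exons were higher and 5 lower. Over all exons the median difference, cKO minus control, was also positive, at 0.0979 points, so nothing is read from these signs. The 2 values of the long Sp4 exon lie far apart, while those of the other 35 events differ by less than 10 points each.

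**Figure D2:**
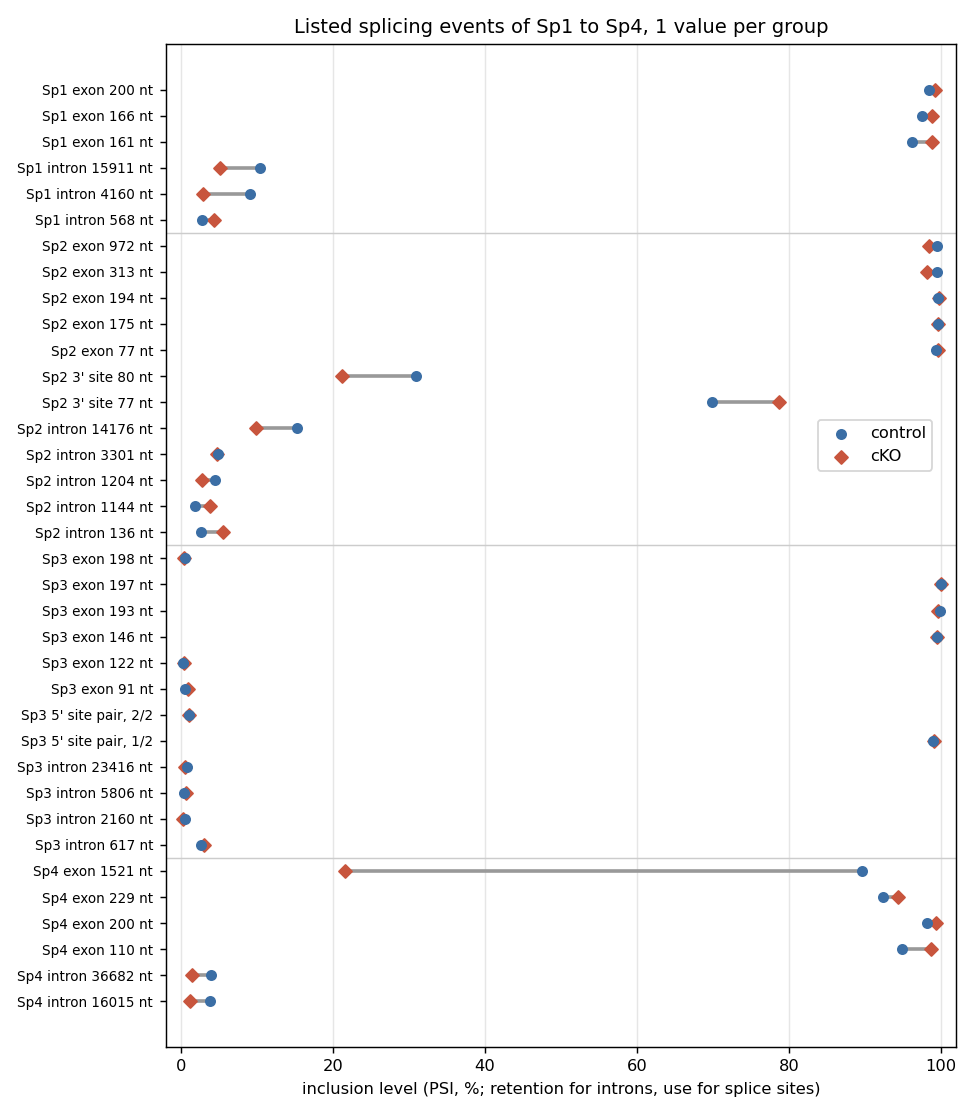
Inclusion level in % (horizontal axis) of the 36 listed events of Sp1 to Sp4, with control as blue circles and cKO as red diamonds, 1 value per group. The Sp4 exon of 1521 nt falls from 89.6% to 21.6%, and the next largest shift is the outer 3′ splice site of Sp2, from 30.9% to 21.1%.

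Messenger RNA of Sp4 was higher in cKO hearts, and that of Sp1, Sp2 and Sp3 did not pass the authors' test. The reference group of the deposited fold changes is not named, and positive values are read as higher in cKO. Near-complete exons lie closer to full inclusion where depth is higher, and for 596 of 629 called genes (94.8%) the depth read in this way had the sign of the fold change. Read from introns in place of exons, the signs were equal for 412 of 547 genes (75.3%). Sp4 (ENSMUSG00000025323) had a log2 fold change of 0.58 (SE 0.12) and passed at an adjusted p of 0.000204 by DESeq2 in the authors' deposited table. Its mean over all hearts was 485 normalized counts, and 178 tested genes had a smaller adjusted p. GENCODE M21 lists 0 Sp4 transcripts that join the neighbours of the long exon without it, and the part of this in the count was not tested. At an adjusted p under 0.05, 1 of 4 members was higher and 0 lower, beside 7.09% of 15929 tested genes called, 3.78% higher and 3.31% lower. Sp4 was in neither of the authors' lists from their other pipelines, sleuth with 517 genes and featureCounts with 171.

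Sp1 (ENSMUSG00000001280) had a log2 fold change of 0.16 with a 95% interval of -0.07 to 0.39 in the authors' deposited table. Sp2 (ENSMUSG00000018678) stood at -0.08, with an interval of -0.32 to 0.15 in the authors' deposited table. Sp3 (ENSMUSG00000027109) stood at 0.03, with an interval of -0.11 to 0.16 in the authors' deposited table. Their adjusted p-values by DESeq2 were 0.514, 0.791 and 0.897 in the authors' deposited table. The interval of Sp4 was 0.34 to 0.82, above those of Sp2 and Sp3 and overlapping that of Sp1. Since the mRNA level of Sp4 helped choose the family, nothing is read from this comparison. The intervals of Sp1, Sp2 and Sp3 include 0.

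In whole hearts, fewer cells of a type and less RNA per cell cannot be told apart. Cardiomyocyte markers were abundant, with means of 25584 to 1223056 normalized counts, and 6 of 8 were lower in cKO, with a median log2 fold change of -0.39 in the authors' deposited table. Myeloid markers were higher in 6 of 15 cases with all 15 values positive and a median of 0.57, and epicardial markers in 1 of 6, all 6 positive, with a median of 0.71 in the authors' deposited table. Of fibroblast markers 1 of 10 was lower, of endothelial markers 1 of 10 higher, of mural markers 1 of 8 higher and of skeletal muscle markers 1 of 5 tested lower. Over all tested genes 3.78% were higher and 3.31% lower. Their part in the rise of Sp4 was not tested.

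The exon of Sp4 stands among a small group of long exons that lost most of their inclusion. Among exons over 300 nt the median inclusion was 98.9% in control and 99.0% in cKO, and 48 were called lower and 2 higher. At a minimum change of at least 5 points 2.36% were lower. The level of Sp4 in control was at or above that of 11.5% of these exons, and in cKO of 6.74%. The 3 exons most like it were taken by the distance in points between their control and cKO levels and those of Sp4, over the 2 groups. The nearest, at 2.61 points, was a 1147-nt exon of the zinc finger gene Zfp865 with 87.0% in control and 21.0% in cKO. In Vamp1, the gene of a vesicle fusion protein, an exon listed with 11305 nt was at 13.0 points with 95.7% and 33.1%. A 314-nt exon of Aak1, the adaptor-associated kinase, was at 15.0 points with 98.7% and 33.5%. The mRNA of these 3 genes had log2 fold changes of 0.27 (SE 0.12), -0.06 (SE 0.17) and 0.14 (SE 0.12) in the authors' deposited table, and 0 of the 3 passed.

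**Figure D3:**
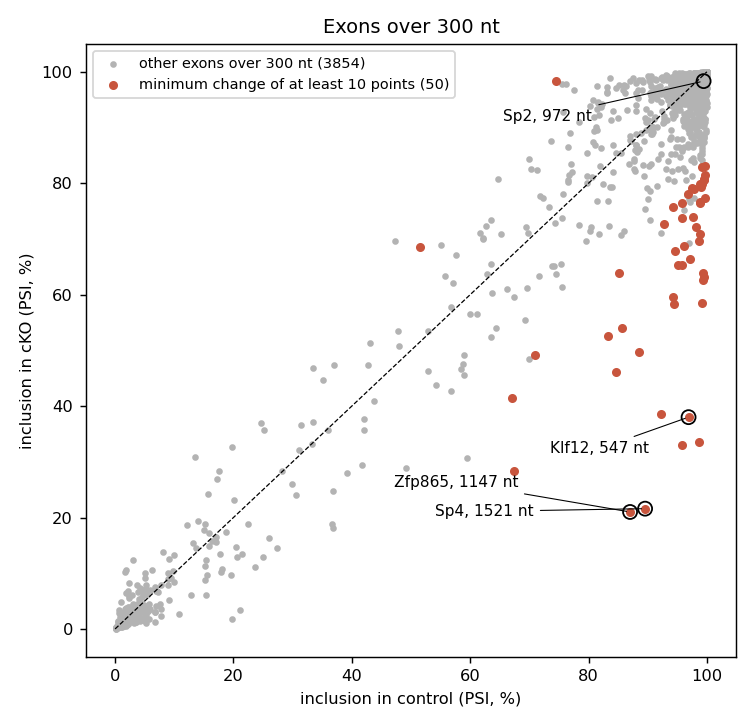
Inclusion in control (horizontal, %) against cKO (vertical, %) of the 3904 exons over 300 nt, with the 50 called exons in red and equal levels on the dashed line. Sp4 lies beside Zfp865 at the lower right, Klf12 above them at 96.9% and 38.0%, and the Sp2 exon near the upper right corner.

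A second exon that lost most of its inclusion was in Klf12, a repressor of the Krüppel-like factors, the nearest relatives of the Sp genes. The 547-nt exon of Klf12, at chr14:100421841-100422387 on mm9, was included at 96.9% in control and 38.0% in cKO, with a minimum change of 40 points in the authors' deposited table. It holds 45.4% of the coding length in GENCODE M21, and its length is not a multiple of 3. Klf12 mRNA had a log2 fold change of -0.05 (SE 0.20) in the authors' deposited table. Of the 73 events of Krüppel-like factors 1 was called, beside 0.23% of all events. Together the Sp and Krüppel-like genes had 11 listed exons over 300 nt in 10 genes, and 9 were above 90% in cKO, beside 86.2% of all exons over 300 nt. The exceptions were Sp4, which chose the family, and Klf12.

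Of 15 tested Krüppel-like factors 0 passed in abundance by DESeq2, beside 7.09% of all tested genes, 2 had an unadjusted p under 0.05 and 0 were in the sleuth or featureCounts list, and the list's median log2 fold change was 0.01 beside -0.0038 over all tested genes. The most abundant, Klf6 and Klf3 stood at 0.14 (SE 0.12) and 0.12 (SE 0.09) in the authors' deposited table. The genes with the 2 unadjusted values, Klf8 at 0.93 (SE 0.46) and Klf10 at -0.41 (SE 0.19) in the authors' deposited table, were named once their values were known. Of the other Sp genes, Sp5 to Sp9, the means were 4.21 to 18.2 normalized counts. Only Sp6 and Sp7 were tested and 0 passed. Sp7, a factor of bone formation, stood at 2.77 (SE 1.08) with an adjusted p of 0.10 by DESeq2 in the authors' deposited table and had the 1 unadjusted p under 0.05, and Sp6 stood at 0.34 (SE 0.56).

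Of the complexes that Sp1 contacts, the share of called genes was near that over all tested genes, 7.09% called and 3.78% higher. Of 30 Mediator subunits 2 rose: Med1, which binds nuclear receptors, by 0.69 on the log2 scale (SE 0.09) and Med10 by 0.53 (SE 0.10) in the authors' deposited table. The list's median was 0.02. Of 14 TFIID subunits 0 passed by DESeq2, with 2 at an unadjusted p under 0.05 (Taf1 and Taf7, named after their values were seen) and 0 in the sleuth or featureCounts list, and the median was 0.07. The abundant Taf1 and Taf10 stood at 0.23 (SE 0.10) and -0.02 (SE 0.11) in the authors' deposited table. Of 13 partner factors and coregulators, E2f1, a regulator of the cell cycle that binds Sp1, stood at a log2 fold change of -0.42 (SE 0.10) and passed with an adjusted p of 0.00198 by DESeq2 in the authors' deposited table, and the median was -0.05. Of 10 enzymes that modify Sp proteins Oga, which removes O-GlcNAc, rose by 0.40 (SE 0.11, adjusted p = 0.00606 by DESeq2) in the authors' deposited table, with a median of 0.10. In TFIID subunits 1 of 314 events was called and in Mediator subunits 1 of 718, beside 0.23% of all events. Partner factors had 0 of 347 and modifying enzymes 0 of 424, and nothing is read from these counts. The TFIID event was a 49-nt exon of Tbp, at 10.8% in control and 34.5% in cKO. The Mediator event was a 5′ splice site of Med7, at 38.3% and 61.2%. Each had a minimum change of 10 points in the authors' deposited table.

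Of 17 genes that textbooks give as targets of Sp1, 1 rose and 2 fell, with a median of -0.14, beside 3.78% higher and 3.31% lower over all tested genes. The cell cycle inhibitor Cdkn1a rose by 0.62 on the log2 scale (SE 0.10) in the authors' deposited table. The gene of thymidine kinase, Tk1, fell by 0.47 (SE 0.09) in the authors' deposited table. The members that passed do not share a direction, and 5 of 17 values were positive. In the same hearts 6 of 15 myeloid markers were higher, as given above, and their part in these changes was not tested. In Igf1r, the receptor of insulin-like growth factor 1, a pair of 3′ splice sites 3 nt apart shifted. The inner site stood at 67.8% in control and 92.4% in cKO, with a minimum change of 10 points in the authors' deposited table. This pair gave the 2 called events among 322 listed for the target genes, beside 0.23% of all events, and nothing is read from that count.

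**Figure D4:**
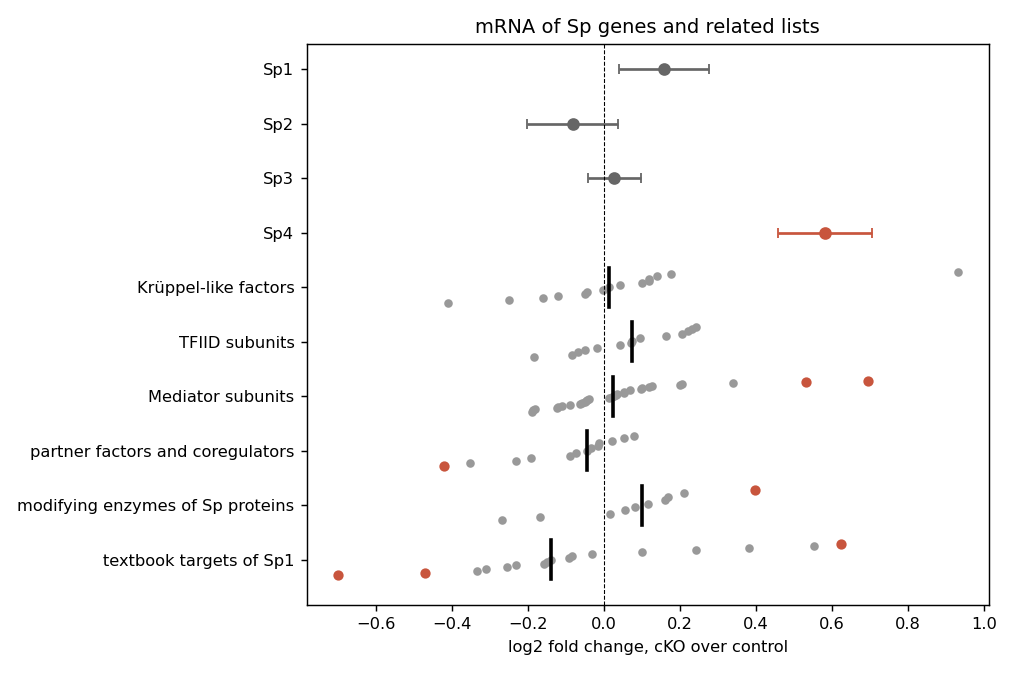
Log2 fold change, cKO over control, in the authors' deposited table: Sp1 to Sp4 with standard errors, and each tested gene of the related lists as a point with the list's median as a bar. Red marks an adjusted p under 0.05, and of the Sp genes only Sp4, at 0.58, is red.

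Short sequence elements, which the choice of the genes did not use, were also counted in the long exons of the family. In vitro selection gave pentamers bound by SRSF3, namely ACAAC or ACATC or ACTAC or ACTTC or TCAAC or TCATC or TCTAC or TCTTC. They were counted on the RNA strand with overlapping matches allowed. They occurred 24 times in the long exon of Sp1, 14 times in Sp2, 25 times in Sp3 and 25 times in Sp4, which is 1.60, 1.44, 1.84 and 1.61 per 100 nt. Over 6094 internal coding exons over 300 nt in GENCODE M21 the median was 0.870 per 100 nt, and the 4 exons lie above 82.7% to 92.3% of them. The 4 exons are alike in sequence, as given above, so their densities are not independent observations. The Klf12 exon, which is named here for its fall in inclusion, had 21 matches, or 3.84 per 100 nt, above 99.9% of these exons. Among long exons called lower in cKO, the 32 that matched the annotation had a median of 1.05. The part of such matches in the inclusion of these exons was not tested, and a match does not show that SRSF3 binds there.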

How the data were processed

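Libraries of 3 control and 3 cKO hearts were stranded and made from polyadenylated RNA, per the labels' protocols, and groups were taken from the sample descriptions. The inclusion levels are headed Hom and HomCre, and were read as control and cKO from those names and the sample descriptions. The direction of every inclusion difference rests on this reading, and so does that of the fold changes. Per the submitters' processing notes, the authors used kallisto 0.46.0 and DESeq2 1.24.0 besides Trimmomatic 0.38 and FastQC 0.10.1. The notes list mm9, mm10 and GRCm38 as builds. No source used here gives the vast-tools version.

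The authors deposited a gene table that holds, per the file headers, the mean normalized signal, the log2 fold change, its standard error, the score of the Wald test and p-values, which are adjusted for 15929 of 36558 genes. For splicing events the authors deposited the inclusion level per group as a fraction, printed here as a percentage, and scores for the difference and the minimum change, with hearts of a group combined. The authors' lists of gene IDs from other pipelines were used as well. These are comparisons of groups, so depth per sample is unknown and counting intervals were not computed.

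From them, intervals of log2 fold changes were computed as 1.96 standard errors, Benjamini-Hochberg values were recomputed over other gene sets, and lists were counted. The direction of the fold changes was read over genes that had at least 3 exons no farther than 3 points from full inclusion. Exons were matched to GENCODE M21 by gene and length, and sequences come from its transcripts. Gene symbols were matched for 35856 gene IDs and not for 702. Adjustment and the depth reading were tested on simulated data. Tools were Python 3.11.15, pandas 2.3.3 and Biopython 1.88.

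The members, lists and limits were chosen with earlier results of these data known. Named are the 4 genes and their events, Srsf3, list genes that passed (at most 6 by adjusted p, or the 2 most abundant where none passed), called events of list genes, and the 3 exons over 300 nt most like that of Sp4. The values of 1 gene that this rule names are not reported here.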

Additional observations from a re-analysis of the deposited data

How the results depend on the processing

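Of 33 values under alternatives 28 were counted as the same. Many of these could hardly move, such as the adjusted p-values of Sp1, Sp2 and Sp3 and the call of the Sp4 exon. The count is therefore no measure of robustness. Sp4 passed with adjusted p-values of 0.000185 to 0.000327 over the other gene sets, but the sleuth pipeline's list held 0 members and that of featureCounts 0 members, and the cause was not tested. The Sp4 exon was the 1 event called at a minimum change of 5 points, of 20 points, and at an expected difference of 10 points. Over 200 nt in place of 300, 0.793% of long exons were called lower in cKO. Called events among the 2198 of the related lists numbered 14 at 5 points and 1, in Klf12, at 20 points. At 10 points they numbered 5, beside 0.23% of all events, and the change in number follows from the limit. No paired analysis was possible because the tables hold no values per heart, and for the same reason no heart could be left out. The spread between hearts is therefore seen only through the authors' standard errors and minimum changes.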

Other observations

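A few long exons of related genes stood lower in cKO without reaching the limit for a call. They were picked with their values known. Of 33 exons over 300 nt in the related lists 4 had a minimum change of at least 5 points, and all 4 were lower in cKO, beside 2.36% of all exons over 300 nt lower at that limit. Besides the called exon of Klf12, these were a 414-nt exon of Crebbp, a histone acetyltransferase, at 97.9% in control and 77.4% in cKO, a 330-nt exon of the Mediator subunit Med15 at 97.6% and 86.5%, and a 301-nt exon of Hcfc1 at 99.8% and 91.6%. The 934-nt exon of Klf11 stood at 99.3% and 91.1% with a minimum change of 3 points in the authors' deposited table.

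The SRSF3 pentamers were also counted in the listed exons over 300 nt that matched GENCODE M21 by gene and length. Of 48 exons called lower in cKO 16 had no single match and were left out, the Sp4 exon with its listed 1521 nt among them. The 32 matched exons had a median of 1.05 per 100 nt, with quartiles of 0.620 and 1.73. The 2452 matched exons not called lower had a median of 0.794, with quartiles of 0.491 and 1.17. This is a description without a test, and the ranges overlap.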
